A study of Mus musculus with 2 samples.

Results

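The interferon response genes are transcripts that cells make after interferon binds its receptor, together with the receptor and the factors that carry the signal. They were followed here in whole eye cups of mice at postnatal day 13. The group was a fixed list of 37 genes, chosen with earlier results of these data known. Each gene was read by the brightest of the probe sets whose annotation named that gene alone. This gave a value for 35 of the 37 genes, among 18193 genes read in the same way on the arrays. The 35 genes were read by 61 probe sets in all. Ifi44 had no such probe set, and Isg15 was read only by a probe set annotated with a further gene, so neither has a value below.

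RNA was measured on 2 Affymetrix Mouse 430 2.0 arrays, 1 for wild-type mice and 1 for Mfsd2a KO mice. Each array held RNA pooled in equal amounts from the eye cups of 6 animals aged 13 days, with no further treatment named. An eye cup is the rear of the eye with retina, pigment epithelium, choroid and sclera, left after cornea, lens and optic nerve are taken off. Mfsd2a encodes a transporter that brings lipids with docosahexaenoic acid into the brain and eye. The sources used here do not give the deleted part of the gene, the mouse strain or the sexes in each pool. A single pool stands for each genotype, so replicate error is unknown, no test was possible and every difference is one between 2 pools. Differences are given as log2 of the intensity of the pool labelled Mfsd2a KO minus log2 of the wild-type intensity, and 1 log2 unit is a 2-fold difference.

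Interferons are small secreted proteins released when a cell senses foreign or misplaced nucleic acid. Type I interferons bind a receptor of paired subunits, whose kinases activate factors such as STAT2. STAT2 joins IRF9 in a complex that binds the interferon-stimulated response element, a short DNA motif ahead of many antiviral genes. In the retina, microglia, Mueller glia and endothelium are known to respond to interferon.

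Several facts of the whole series bear on these genes. The probe set of Mfsd2a read 181 in wild type and 244 for the pool labelled Mfsd2a KO (0.43 on the log2 scale). This shows no loss of its RNA, but the deleted part is not known, so the label could not be checked. The second array is therefore called the KO-labelled array, and all directions depend on that name. Sex-linked transcripts differed between the pools: Xist read 7055 and 4357, and the Y-linked gene Uty read 78.2 and 157. Rod genes such as Gnat1 (16823 and 15928) and pigment epithelium genes such as Rpe65 (3484 and 3301) were bright on both arrays, as an eye cup should give. For beta-actin the 3' to 5' signal ratio, a gauge of intact RNA, was 1.49 on the wild-type array against 1.44. Hybridisation spike-ins, control transcripts that do not come from the tissue, had a median of 736 and 802, with a median difference of 0.12. The part of sex, RNA quality and array handling in the results below was not tested.

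Most of the interferon response genes were slightly brighter on the KO-labelled array, and a pair of them, Usp18 and Oasl2, stood well apart from the rest. Of the 35 genes with a value, 28 had a difference above 0, or 80.0%, where 47.3% of all genes did. A further 708 of the 18193 genes had a difference of exactly 0. The median difference of the 35 genes was 0.15, and the median of all genes was 0. At a size of 1.5-fold, 2 of the 35 were higher (5.71%, against 0.115% of all genes) and 0 were lower (0.115% of all genes). At 1.2-fold, 9 were higher (25.7%, against 2.23% of all genes) and 1 was lower (2.86%, against 3.38% of all genes). The 9 were Usp18, Oasl2, Rtp4, Irf7, Ifit1, Xaf1, Parp14, Oas1a and Trim30a, and the 1 was Mx1. Without Usp18 and Oasl2, the median was 0.14 over 33 genes. The list was chosen with earlier results of these data known, so these shares are a description and not independent support.

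**Figure D1:**
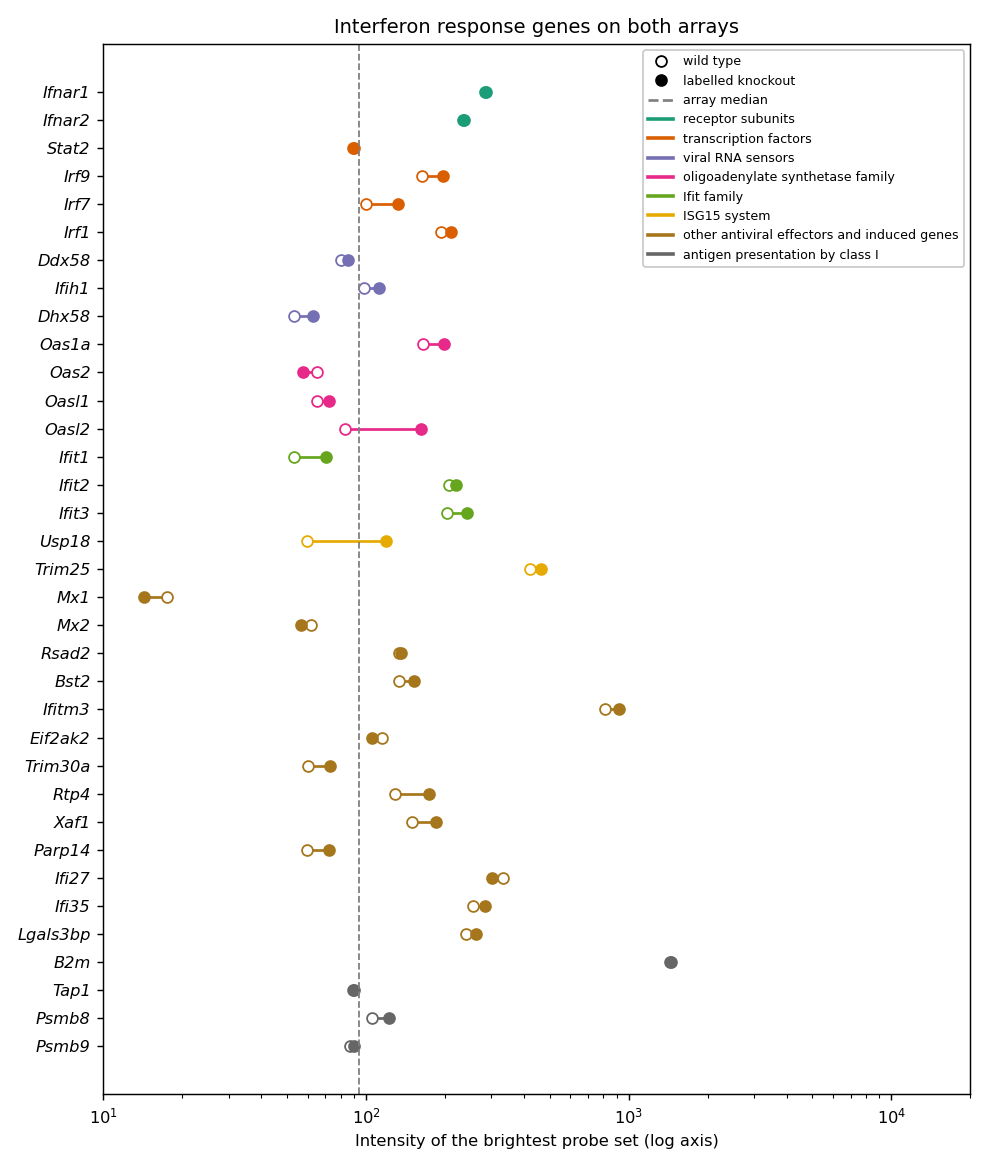
Intensity of the brightest probe set of each interferon response gene on a log axis, with 1 open point for the wild-type array and 1 filled point for the KO-labelled array, coloured by role. The dashed line is the array median. Usp18 and Oasl2 have the widest gaps and cross that line, while the receptor subunits and B2m have points that nearly coincide.

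The only error that could be computed is technical. The log2 difference between the arrays varied among probe sets of the same gene with a pooled SD of 0.12. This was taken over 9010 genes with at least 2 probe sets. That SD was 0.089 for probe sets that reached the array median and 0.16 for those below both medians, so dimmer genes are less certain. The array medians were 94.2 in wild type and 93.4 on the other array. In all, 12 genes were under the median on both arrays: Stat2, Ddx58, Dhx58, Oas2, Oasl1, Ifit1, Mx1, Mx2, Trim30a, Parp14, Tap1 and Psmb9. Usp18 and Oasl2 were under it in wild type only.

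**Figure D2:**
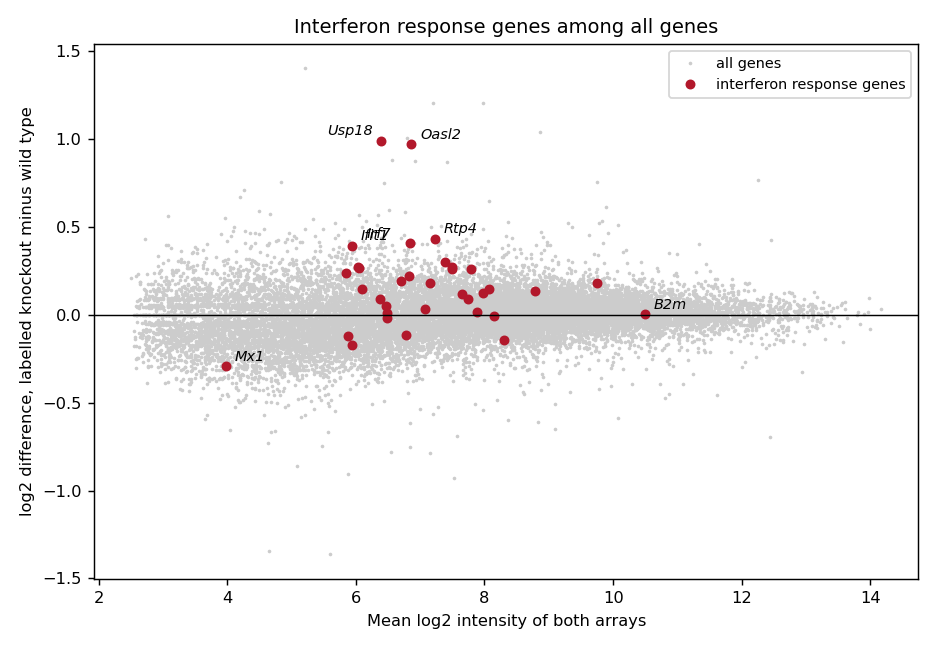
Log2 difference between the arrays against the mean log2 intensity of both, with 1 grey point per gene (18193 genes) and the 35 interferon response genes in red. Usp18 at 0.99 and Oasl2 at 0.97 lie above most of the grey cloud, at ranks 6 and 7 from the highest, and the other red points run from -0.29 to 0.43.

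To show the DNA ahead of these genes, promoter windows from RefSeq (assembly GRCm38.p6, 250 bases before to 50 after a transcript start) were searched on both strands for the core of the interferon-stimulated response element: GAAA, any 2 bases, then GAAA. Windows were found for 29 of the 37 genes and none for Usp18, Rtp4, Dhx58, Oas2, Mx1, Mx2, Parp14 and Ifi27. The core was in 13 of the 29 genes, or in 14 of 33 windows (42.4%), against 3.44% of all 32851 windows. The 170 bases before the start site are printed below, on the strand of each gene, with the core in capitals where it occurs. They are shown for Oasl2, which had the largest difference among the genes with a window, for 3 classic target genes with paired cores, and for B2m, which holds the core and hardly differed between the arrays. The stretches are chr5:114896764-114896933 on the plus strand for Oasl2, chr19:34640719-34640888 on the plus strand for Ifit1, chr19:34583359-34583528 on the plus strand for Ifit3, chr5:120907526-120907695 on the minus strand for Oas1a, and chr2:122147517-122147686 on the plus strand for B2m.
Oasl2: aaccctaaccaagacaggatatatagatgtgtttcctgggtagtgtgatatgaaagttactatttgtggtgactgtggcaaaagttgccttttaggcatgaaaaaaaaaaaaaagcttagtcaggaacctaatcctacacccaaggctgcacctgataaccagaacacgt
Ifit1: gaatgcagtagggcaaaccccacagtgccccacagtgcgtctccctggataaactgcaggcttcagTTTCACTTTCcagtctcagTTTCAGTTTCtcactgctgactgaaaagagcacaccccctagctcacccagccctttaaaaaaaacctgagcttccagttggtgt
Ifit3: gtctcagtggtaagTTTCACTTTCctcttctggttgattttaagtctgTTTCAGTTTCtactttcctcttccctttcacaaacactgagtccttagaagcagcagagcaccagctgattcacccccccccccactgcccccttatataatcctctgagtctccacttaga
Oas1a: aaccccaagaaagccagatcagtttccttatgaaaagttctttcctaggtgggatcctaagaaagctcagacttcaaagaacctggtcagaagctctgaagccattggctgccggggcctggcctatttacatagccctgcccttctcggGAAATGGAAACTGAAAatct
B2m: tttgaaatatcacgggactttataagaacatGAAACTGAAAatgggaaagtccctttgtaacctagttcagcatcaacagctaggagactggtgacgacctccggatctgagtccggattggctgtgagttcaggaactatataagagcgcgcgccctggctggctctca

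In Ifit1 and Ifit3 the cores read on the strand opposite to the gene, with their leftmost bases 104 and 85 bases before the start of Ifit1 and 156 and 122 bases before that of Ifit3. In Oas1a a pair of cores overlapped, starting 20 and 14 bases before the start. The Oasl2 window held no match, which says only that these letters are not in this stretch. The 12 genes with a core and an array value had a median difference of 0.18, and 3 of them were at least 1.2-fold higher (25%, against 2.23% of all genes). The 15 genes with a window but no core had a median of 0.14, also with 3 at least 1.2-fold higher (20%). The 8 genes without a window had a median of 0.060, with 3 at least 1.2-fold higher (37.5%). Among these 8, 1 was lower by that size (12.5%, against 3.38% of all genes). A difference between these groups was not tested.

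**Figure D3:**
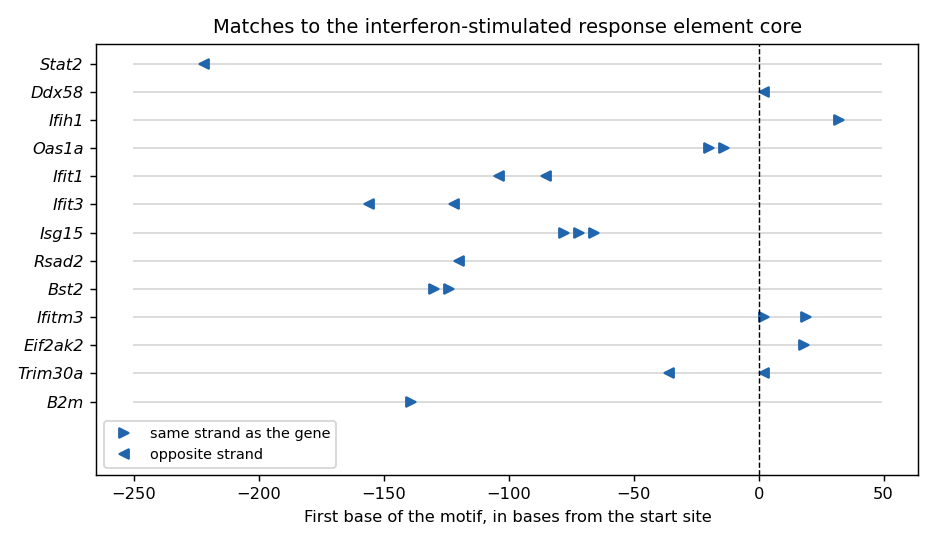
Place of each match to the response element core in the promoter windows of the 13 genes that hold it, in bases from the start site (dashed line), with arrowheads for the strand. Isg15 has 3 matches, and matches lie from 222 bases before the start in Stat2 to 32 bases after it in Ifih1.

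The receptor of type I interferon was level between the pools. Ifnar1, one of its subunits, read 286 in wild type and 284 on the KO-labelled array, a difference of -0.0063. Ifnar2, the other subunit and the docking site of USP18, read 235 and 237 (0.014). The remaining probe sets of both genes ran from -0.072 to 0.013, so no probe set of the receptor was past 1.2-fold.

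Of the 4 transcription factors, 1 was at least 1.2-fold higher (25%, against 2.23% of all genes) and 0 were lower by that size (3.38% of all genes). Irf7, the factor that amplifies interferon production, read 99.9 in wild type and 132 in the KO-labelled pool, a difference of 0.41 or 1.33-fold, which ranked 101 among all 18193 genes from the highest. Irf9, the DNA-binding partner of STAT2, read 164 and 196, and at 1.199-fold it lay just under the size counted. Irf1, a factor induced most by interferon gamma, read 193 and 210 (0.12). Stat2 read 90.2 and 89.2 in its brighter probe set (-0.016), whereas its dimmer one read 67.9 and 79.6 (0.23). The 3 other factors were each read by a single probe set.

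The 3 cytosolic sensors of viral RNA were a little brighter on the KO-labelled array in their brightest probe sets, and none was past 1.2-fold. Ifih1, which encodes the sensor MDA5 of long double-stranded RNA, read 97.9 and 112 (0.19). Dhx58, which encodes the regulator LGP2, read 53.0 and 62.7 (0.24). Ddx58, which encodes RIG-I, the sensor of RNA ends, read 80.1 and 85.4 (0.092). The dimmer probe sets of Ddx58 were below 0, down to -0.16, and those of Dhx58 ran from -0.13 to 0.048. The sign for both genes therefore depends on the probe set taken. The mean over the 3 sets was -0.033 for Ddx58 and 0.054 for Dhx58.

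The oligoadenylate synthetase family was mixed. Its enzymes make a messenger that switches on the RNA-cutting enzyme RNase L. Oasl2, a member of the family with ubiquitin-like domains, read 82.9 in wild type and 163 on the KO-labelled array, a difference of 0.97 or 1.96-fold. This difference ranked 7 from the highest among all 18193 genes. Oas1a, a synthetase, read 165 and 199 (0.27, 1.21-fold). Oasl1, which limits the translation of Irf7, lies next to Oasl2 on chromosome 5, with 0 protein-coding genes between them, and read 65.1 and 72.2 (0.15). Oas2, a larger synthetase, read 64.8 and 57.7 (-0.17) and was the 1 member of the family below 0. Each of the 4 genes was read by 1 probe set, so no second reading exists. Oas1a, Ifit3 and Trim30a have close relatives in the genome, and how far their probe sets also read those was not analysed here. The 5 genes read on each side of Oasl2 differed by -0.097 to 0.17, all well under Oasl2 itself.

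The Ifit proteins bind viral RNA and block its translation, and their 3 genes lie together on chromosome 19. All 3 were above 0 (100%, against 47.3% of all genes). Ifit1, which binds RNA that lacks the host's cap mark, read 53.4 and 70.1 (0.39, 1.31-fold). Ifit3, its partner protein, read 203 and 243 (0.26) and lay just under the size counted at 1.199-fold. Ifit2 read 207 and 220 (0.089). Ifit1 was under the median on both arrays, and each of the 3 again had a single probe set.

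The protein ISG15 is a ubiquitin-like tag that is joined to other proteins after interferon. Usp18, which takes the tag off and also damps signalling at the receptor, had the largest difference of the 35 genes. It read 59.7 in the wild-type pool and 119 in the KO-labelled pool, a difference of 0.99 or 1.99-fold, at rank 6 of all genes. It has 1 probe set, and the wild-type value was under the array median. The 5 genes read on each side of it on chromosome 6 differed by -0.44 to 0.26. Trim25, a ubiquitin ligase that activates RIG-I, read 420 and 462 (0.14), with 0.089 and -0.070 in its other probe sets.

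Of the 13 other antiviral effectors with a value, 4 were at least 1.2-fold higher (30.8%, against 2.23% of all genes). By that size 1, Mx1, was lower (7.69%, against 3.38% of all genes). Rtp4, an interferon-induced chaperone of membrane receptors, read 129 in wild type and 174 in the KO-labelled pool (0.43, 1.35-fold), but its second, dim probe set read the same on both arrays (a difference of 0). Xaf1, a promoter of cell death, read 150 and 185 (0.30), and again its dim second probe set differed by 0. Parp14, an ADP-ribosyltransferase, read 59.7 and 72.2 (0.27), with 0.20 in its other set. Trim30a, a regulator of innate signalling, read 60.4 and 72.7 (0.27), and its other probe set read 54.7 and 77.7 (0.51). Of these, Parp14 and Trim30a had both of their probe sets above 0.

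Smaller positive differences were seen for the restriction factors at the cell membrane. Bst2, or tetherin, which holds budding virus at the cell surface, read 134 and 152 (0.18). Ifitm3, which stops viruses from fusing with endosomes, read 810 and 920 (0.18). Ifi35, an interferon-induced regulator, read 256 and 284 (0.15), and its 3 probe sets were all above 0. Lgals3bp, a secreted glycoprotein, read 240 and 262 (0.12). Rsad2, which encodes viperin, read 133 and 136 (0.037).

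A further 4 of the 13 effectors lay below 0, as did 8878 of all 18193 genes. Mx1, a dynamin-like GTPase that blocks influenza virus, read 17.4 and 14.2 (-0.29, the lowest of the 35 genes), under both array medians. Mx2, its relative, read 61.7 and 56.7 (-0.12). Ifi27, a mitochondrial protein, read 332 and 301 (-0.14), and its second probe set gave -0.16. Eif2ak2, which encodes the kinase PKR that halts translation on double-stranded RNA, read 115 and 106 (-0.12) in its brightest set, with 0.10 and 0.18 in the others. Mx1 and Mx2 had 1 probe set each, so they have no second reading. Of Ifi27 and Eif2ak2, only Ifi27 was below 0 in more than 1 probe set.

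The genes of class I antigen presentation, which show peptides to T cells and respond to interferon gamma as well, differed by less than 1.2-fold in their brightest probe sets. B2m, the light chain of class I molecules, read 1441 and 1446 (0.0049), with 0.035 in its other probe set. Tap1, the peptide transporter, read 89.2 and 89.9 (0.012), while its 3 dimmer sets went down to -0.38. Psmb9, an immunoproteasome subunit encoded beside Tap1 on chromosome 17, read 87.1 and 90.4 (0.053). Psmb8, another such subunit and the next gene in that row, read 105 and 123 (0.22), with 0.16 in its second set.

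**Figure D4:**
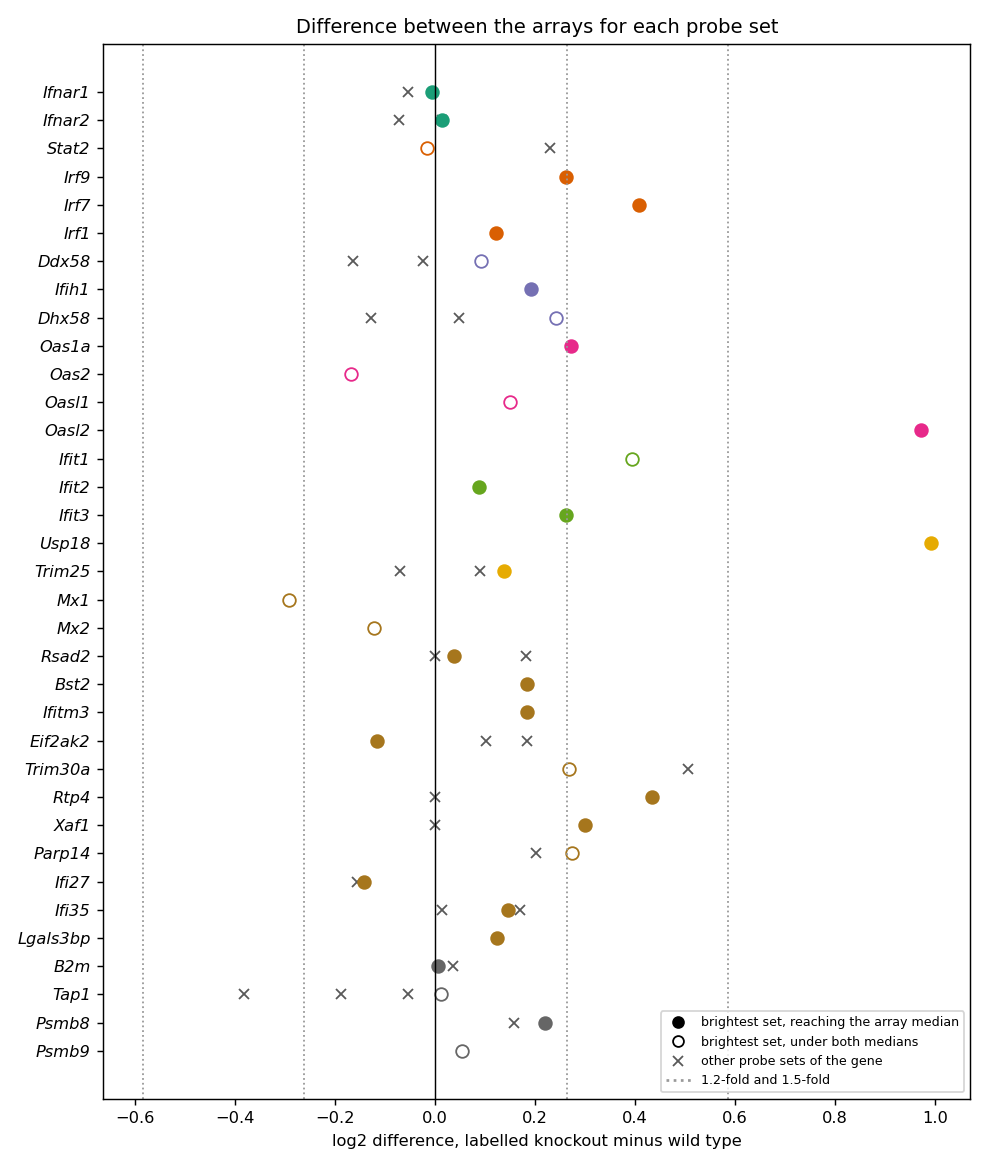
Log2 difference between the arrays for every probe set of the 35 genes, in the order of their roles. Circles are the brightest sets (open where under both array medians), crosses the other sets, and dotted lines mark 1.2-fold and 1.5-fold. The crosses lie nearer to 0 than the circles for Rtp4 and Xaf1, and beyond the circle for Trim30a. They all lie on the other side of 0 for Stat2, Ddx58, Eif2ak2 and Tap1, and in part for Ifnar2, Dhx58 and Trim25.

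Agreement between probe sets was partial. Of the 17 genes with several probe sets, 10 had no probe sets of opposite sign and 7 had sets of both signs. The 26 probe sets that were not the brightest had a median of 0.0065, with 13 above 0 (50%, against 47.3% of all genes), 10 below and 3 at 0. Most of these 26 sets were under both array medians, where a difference is less certain. Past 1.2-fold, 1 was higher (a set of Trim30a at 0.51) and 1 lower (a set of Tap1 at -0.38). Each was 3.85% of the 26 sets, against 2.23% of all genes higher and 3.38% lower. The 18 genes with a single probe set, among them Usp18, Oasl2, Irf7 and Ifit1, had a median of 0.18, and the 17 with several had a median of 0.092. For Usp18, Oasl2, Irf7 and Ifit1 the size of the difference therefore rests on 1 probe set each.

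The rest of the pathway was read through lists of further genes. None of the interferon genes themselves was past 1.2-fold higher: the 10 ligands with a value had a median of -0.055, and 2 were at least 1.2-fold lower (20%). Over all genes, 2.23% were at least 1.2-fold higher and 3.38% were lower by that size. Ifnb1, the interferon made first by most cells, read 31.1 and 24.1 (-0.37), Ifnz read 113 and 93.7 (-0.28) and Ifng, the interferon of T and NK cells, read 9.60 and 11.1 (0.21). All of the 10 but Ifnz were under both array medians. The 19 receptors, kinases and regulators, which include Jak1, Tyk2 and Socs1, had a median of -0.0016 with 0 past 1.2-fold in either direction. In that list Irf8, a factor of myeloid cells, read 59.0 and 66.9 (0.18) and Ptpn6, a phosphatase that dampens signalling, read 116 and 103 (-0.17). The 20 nucleic acid sensors and adaptors had a median of -0.015, also with 0 past 1.2-fold in either direction. Rnaseh2a, part of the enzyme that removes ribonucleotides from DNA, was at 0.23 and Tlr9, a sensor of DNA in endosomes, at -0.23.

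The 41 further interferon-induced genes with a value had a median of 0.029. Of these, 5 were at least 1.2-fold higher (12.2%, against 2.23% of all genes) and 0 were lower by that size (3.38% of all genes). Ddx60, a helicase that assists RIG-I, read 22.1 and 37.4 (0.76, 1.69-fold), under both array medians, with 0.28 in its other probe set. Helz2, a helicase, read 30.9 and 41.2 (0.42). Trim34a read 81.9 and 108 (0.40) with 0.039 in its other set, Parp12 read 192 and 245 (0.35), and Dtx3l, a ubiquitin ligase, read 185 and 230 (0.32). The 9 interferon-inducible GTPases, which attack the vacuoles of intracellular parasites, had a median of 0.23. In this list 4 were at least 1.2-fold higher (44.4%, against 2.23% of all genes) and 0 were lower by that size. Gbp6 read 104 and 138 (0.41), Gbp3 read 120 and 159 (0.41), Gbp7 read 208 and 265 (0.35, with -0.0086 in its other set) and Irgm1 read 165 and 206 (0.32). Further class I genes had a median of -0.013 over 14 genes, with 0 past 1.2-fold. The 6 class II genes had a median of -0.12, and Ciita, their master regulator, read 53.2 and 40.3 (-0.40) in its brightest set and 0.25 in the highest of its 3 sets.

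**Figure D5:**
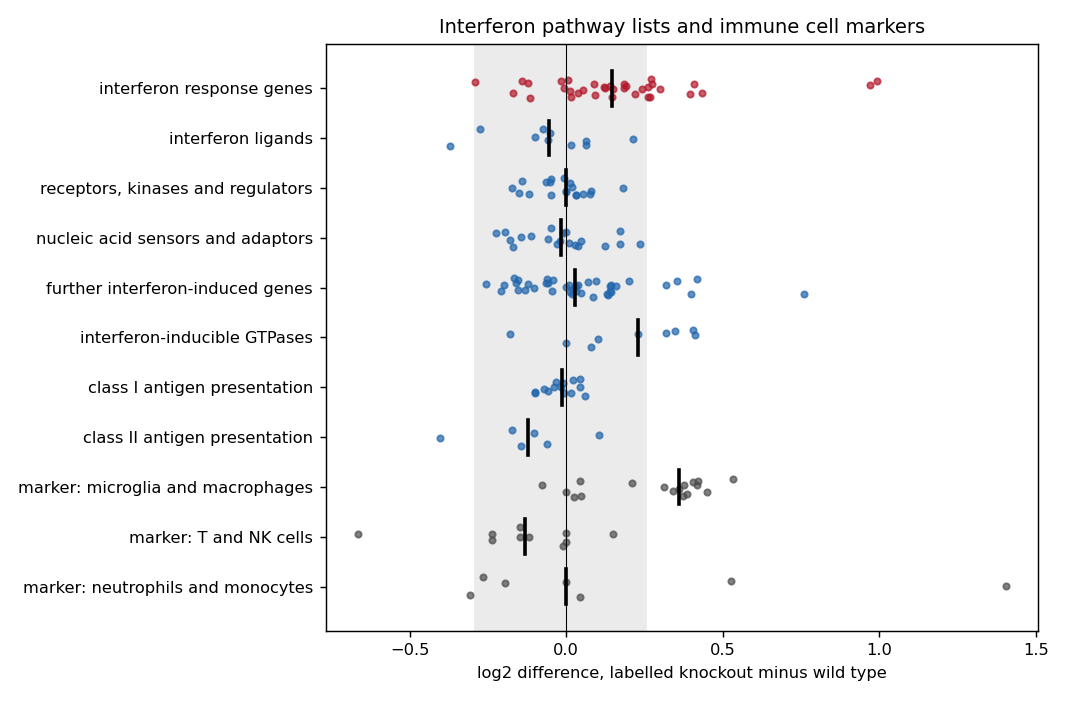
Log2 difference of each gene in the interferon response group (red), further lists of the pathway (blue) and immune cell markers (grey), with black bars at the medians and a shaded band for the central 95% of all genes, -0.29 to 0.25. The response genes, the GTPases and the microglia markers have medians of 0.15, 0.23 and 0.36, and those of the ligands, sensors and class I genes lie at or below 0.

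Markers of microglia and macrophages differed in the same direction as the response genes. Of 17 such markers with a value, 15 had a positive difference (88.2%, against 47.3% of all genes), with a median of 0.36. At 1.2-fold, 11 were higher (64.7%, against 2.23% of all genes) and 0 were lower (3.38% of all genes). Their summed intensity was 4107 in wild type and 4890 on the KO-labelled array. C1qa, a complement gene, read 278 and 379 (0.45) and Aif1 read 44.0 and 57.2 (0.38), each in a single probe set. Ptprc, the shared antigen of white blood cells, read 59.4 and 86.0 (0.53) in its brighter set and -0.11 in the other, and Cx3cr1, the fractalkine receptor, read 114 and 151 (0.41) with 0.014 in its lowest set. Others hardly differed: Csf1r was at 0.024, Trem2 at 0 and Tmem119 at -0.078. In bulk tissue, more cells of a type and more RNA per cell cannot be told apart, and the part of the microglia in the response genes was not tested.

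Lists for other immune cells had medians near or below 0. T and NK cell markers had a median of -0.13 over 10 genes, with 0 at least 1.2-fold higher (2.23% of all genes). Their summed intensity was 469 and 418. Only 1 of the 10 reached the array median, so little can be read from this list. Cd3e read 72.4 and 65.4, and Cd3d read 59.5 and 37.5 (-0.67). Markers of B cells and plasmacytoid dendritic cells, the main makers of type I interferon in blood, had a median of 0.030 over 7 genes, and Siglech read 75.0 and 80.4 (0.10). Only 1 of these 7 reached the array median, and Siglech did not, so this list also says little. For the lists that follow, 8607 of all 18193 genes were above 0 and 8878 were below. Lens markers were above 0 in 8 of 8 genes with a median of 0.20. Cornea and conjunctiva markers were below 0 in 7 of 7 genes with a median of -0.40. Skeletal muscle markers were below 0 in 5 of 7 genes with a median of -0.25, and Pvalb among them was at -0.61. Pigment epithelium markers were below 0 in 6 of 8 genes with a median of -0.12. Among them, 3 were at least 1.2-fold lower (37.5%, against 3.38% of all genes): Rdh5 (-0.34), Lrat (-0.31) and Rgr (-0.30). Mueller glia and endothelium, which also respond to interferon, had medians of 0.015 and -0.071 over 8 markers each. The part of such differences in tissue make-up in the response genes was not tested either.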

How the data were processed

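The deposited values are linear intensities of 45101 probe sets per array. The submitters' processing notes name Partek 6.6 and RMA, a method that subtracts background, forces arrays to 1 distribution and merges probes into probe sets, so that dim differences are compressed and any global shift between pools is lost. Of the probe sets, 34958 carried 1 gene symbol, 932 several and 9211 none. Control probe sets (64) were left out, and log2 values were compared as labelled knockout minus wild type with no floor and no pseudocount. Symbols of all 35 genes with a value matched RefSeq by Entrez identifier. With 1 array per genotype the precision is limited by the number of arrays, and genes were counted at fixed sizes of 1.5-fold and 1.2-fold. Text names all members, Mfsd2a, genes of the other lists with the largest differences, and the first genes of marker lists; a few more, such as Xist, Uty, Jak1, Csf1r, Trem2 and Tmem119, were added after their values were seen. Members and lists were chosen with earlier results of these data known. Software was Python 3.11.15, pandas 2.3.3, numpy 2.4.6 and statsmodels 0.14.6 (for the loess trend). The step that gives 1 value per gene was tested on simulated data with planted 2-fold differences. That test did not cover differences of 1.2-fold, the list counts or the promoter search.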

Additional observations from a re-analysis of the deposited data

Results flagged for a closer look

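A reading outside the gene values also differed between the arrays. The probe set annotated with both Isg15 and Gm9706 read 116 in wild type and 168 on the KO-labelled array (0.53 on the log2 scale, 1.44-fold). It was left out above because its signal cannot be assigned to either gene. It was singled out because it is at least 1.2-fold brighter than in wild type; the other probe set shared by a member, that of Trim30d and Trim30a, differed by 0.048.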

How the results depend on the processing

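No paired analysis was possible because there is 1 array per genotype. The number past 1.5-fold higher, 2, was 0 at a size of 2-fold, 5 at 1.3-fold, 0 with a floor at the 70th percentile (7 genes left) and 0 without Usp18 and Oasl2, an alternative chosen after seeing the data. The number past 1.2-fold higher, 9, was 0 at the 70th percentile floor and 4 with a pseudocount of 32, which shrinks dim differences by construction. The 28 genes above 0 became 5 of 7 at that floor. The 1 gene past 1.2-fold lower, Mx1, was lost (0) with a floor at the array median, at the 70th percentile, with the loess trend removed and with the pseudocount, and the count was 2 with the probe set of largest difference. A floor keeps Usp18 and Oasl2 only through the array where they are high. Of the 9, 6 were kept with probe sets averaged, where 5 genes took another sign, 8 with the loess trend removed, and all 9 without _s_at and _x_at sets and with each array divided by its median. The median of the genes with a value stayed above 0 in each of these. It was taken over 7 genes at the 70th percentile floor, 23 at the array median floor and 33 without Usp18 and Oasl2. With the pseudocount Usp18 differed by 0.72 and Oasl2 by 0.76, and with averaged sets Rtp4 differed by 0.22 and Xaf1 by 0.15. The cause of other changes was not tested.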

Other observations

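Among the markers of neutrophils and monocytes, S100a8, a calcium-binding protein of those cells, read 22.7 in wild type and 60.0 on the KO-labelled array (1.40 on the log2 scale, 2.65-fold). It was the highest of all 18193 genes, though under both array medians. Its partner S100a9 read 42.7 and 61.4 (0.53). The list was mixed: its median was 0 over 7 genes, and Ngp and Elane, which encode granule proteins of the same cells, differed by -0.31 and -0.26. Of the 7 genes, 0 reached the median on either array, so little can be read from this list.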
